A study of Mus musculus with 12 samples.

Results

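C1qa, C1qb and C1qc encode the A, B and C chains of C1q, the recognition part of the first component of complement. They are 3 of the 16094 genes in the expression table, and were chosen by their names on the strength of their difference between SLE.yaa and WT mice, so that difference is described here without a test. Every annotated cell type of every mouse was examined for detection of each chain, joint detection of the chains in a cell, and the share of C1q transcript each type held.

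The study profiled CD45+ spleen cells, enriched on magnetic columns and captured in 10x Genomics droplets, from 4 male mice. WT 1 and WT 2 were C57BL/6 mice. SLE.yaa 1 and SLE.yaa 2 were B6.Sle1yaa mice, which carry the lupus susceptibility interval Sle1 together with Yaa, a Y chromosome bearing a translocated piece of the X chromosome that includes Tlr7. The tag that holds the group speaks of chimeras, and no source used here says if the animals were that. The deposited age was 14.4 in both WT mice and 14.9 in both SLE.yaa mice, with no unit, so age cannot be told apart from strain. After the authors' filters the mice gave 5497 (WT 1), 5697 (WT 2), 4961 (SLE.yaa 1) and 6130 (SLE.yaa 2) cells, with median UMI counts of 3467, 3670, 4695 and 4050. The authors assigned the cells to 12 types, and their names are kept: DC, Mac, PMN, pDC, Baso, B, B-ISG, B-early, PC, CD4, CD8 and NK. A total of 254 barcode sequences occurred in more than 1 expression library and covered 510 cells (2.29%). Of the 504 cells with 2 or 3 chains, 9 had such a barcode, and none of their 10 partners in other libraries held any chain.

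C1q is assembled from all of its chains, and a cell needs the 3 transcripts to make it. The molecule binds antibody in immune complexes, pentraxins and the surface of dying cells, and activates the proteases C1r and C1s to start the classical pathway, which goes on to cleave C4, C2 and C3. Unlike most complement proteins, which come from the liver, C1q is made largely by macrophages and related myeloid cells, and inherited lack of C1q is strongly linked to lupus.

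The genes lie next to each other on mouse chromosome 4 (RefSeq annotation of GRCm38.p6). C1qb spans 136880126 to 136886200, C1qc 136889801 to 136892936 and C1qa 136895916 to 136898844. The cluster is 18719 bases long, with gaps of 3600 bases between C1qb and C1qc and 2979 bases between C1qc and C1qa. Because the chains were detected together in the same cells, as described below, the 250 bases before the start site are shown for the 2 chains with an entry in the RefSeq promoter table of build GRCm38.p6. They are chr4:136886201-136886450 for C1qb and chr4:136892915-136893164 for C1qc, read 5′ to 3′ on the minus strand. Capitals mark matches to GAGGAA, the core bound by PU.1 (a myeloid transcription factor), on either strand.
C1qb: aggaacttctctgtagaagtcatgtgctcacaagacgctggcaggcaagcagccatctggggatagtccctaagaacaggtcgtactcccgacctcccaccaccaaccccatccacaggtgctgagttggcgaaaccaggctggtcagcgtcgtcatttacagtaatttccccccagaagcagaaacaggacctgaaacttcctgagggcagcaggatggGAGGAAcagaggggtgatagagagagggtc
C1qc: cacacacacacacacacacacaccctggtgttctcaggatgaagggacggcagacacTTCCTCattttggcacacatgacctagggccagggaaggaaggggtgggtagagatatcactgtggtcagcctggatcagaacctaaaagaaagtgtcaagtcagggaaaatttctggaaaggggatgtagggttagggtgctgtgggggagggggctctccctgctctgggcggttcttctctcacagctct
The PU.1 motif occurred 1 time in each window, written TTCCTC in C1qc because it lies on the other strand there, beginning 30 bases before the start of C1qb and 193 bases before that of C1qc. Neither window held GAAANNGAA, an element bound by interferon regulatory factors. Neither held TGANTCA, the element bound by the factor AP-1, which reads the same on both strands. Of 32851 mouse promoter windows of the same length, 23.3% held the PU.1 motif on either strand, 7.13% that of interferon regulatory factors and 6.75% that of AP-1. The motifs were picked after these sequences had been seen, do not overlap each other in these windows, and a match describes letters only. The last 22 bases printed for C1qc lie inside its RefSeq gene record, which begins farther upstream.

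C1q transcript was concentrated in the cells annotated DC in all 4 mice. A cell was counted as positive for a chain when its deposited value was above 0. Any chain was found in 4 of 77 cells annotated DC in WT 1 (5.19%, exact Clopper-Pearson 95% interval 1.43 to 12.8), 9 of 74 in WT 2 (12.2%, 5.71 to 21.8), 209 of 260 in SLE.yaa 1 (80.4%, 75.0 to 85.0) and 219 of 290 in SLE.yaa 2 (75.5%, 70.1 to 80.4). These intervals cover counting error only, and cells of a mouse are not replicates. The group values were 8.68% ± 4.93 in WT and 78.0% ± 3.44 in SLE.yaa (mean ± SD, n = 2 mice each), and the chains were chosen for such a difference.

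Levels were compared as vpm, the mean depth-adjusted value of a gene over the cells of a type, scaled so that all genes sum to 1000000. In the cells annotated DC, C1qa stood at 85.3 and 154 vpm in WT 1 and WT 2 and at 3136 and 2284 vpm in SLE.yaa 1 and SLE.yaa 2. C1qb stood at 118 and 183 vpm in the WT mice and at 4276 and 3597 vpm in the SLE.yaa mice. C1qc stood at 108 and 194 vpm against 3376 and 2687 vpm. All 3 chains were therefore low in both WT mice and high in both SLE.yaa mice, which is the difference they were chosen for. Over all cells of a mouse the same order held, with C1qa at 1.61, 2.35, 165 and 114 vpm, C1qb at 2.72, 3.07, 226 and 179 vpm, and C1qc at 1.87, 2.88, 178 and 133 vpm for WT 1, WT 2, SLE.yaa 1 and SLE.yaa 2.

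The cells annotated DC held 81.4% ± 5.88 of all C1q value in WT mice and 96.8% ± 1.23 in SLE.yaa mice (mean ± SD, n = 2 mice each). They made up 1.40% and 1.30% of the cells of the WT mice and 5.24% and 4.73% of the cells of the SLE.yaa mice. Their summed C1q level was 312, 532, 10788 and 8568 vpm for WT 1, WT 2, SLE.yaa 1 and SLE.yaa 2. Among types with at least 20 cells, that was 20.5, 24.9, 70.1 and 172 times the level of the next type, which was Mac in both WT mice (15.2 and 21.4 vpm), B-ISG in SLE.yaa 1 (154 vpm) and CD8 in SLE.yaa 2 (49.7 vpm).

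**Figure D1:**
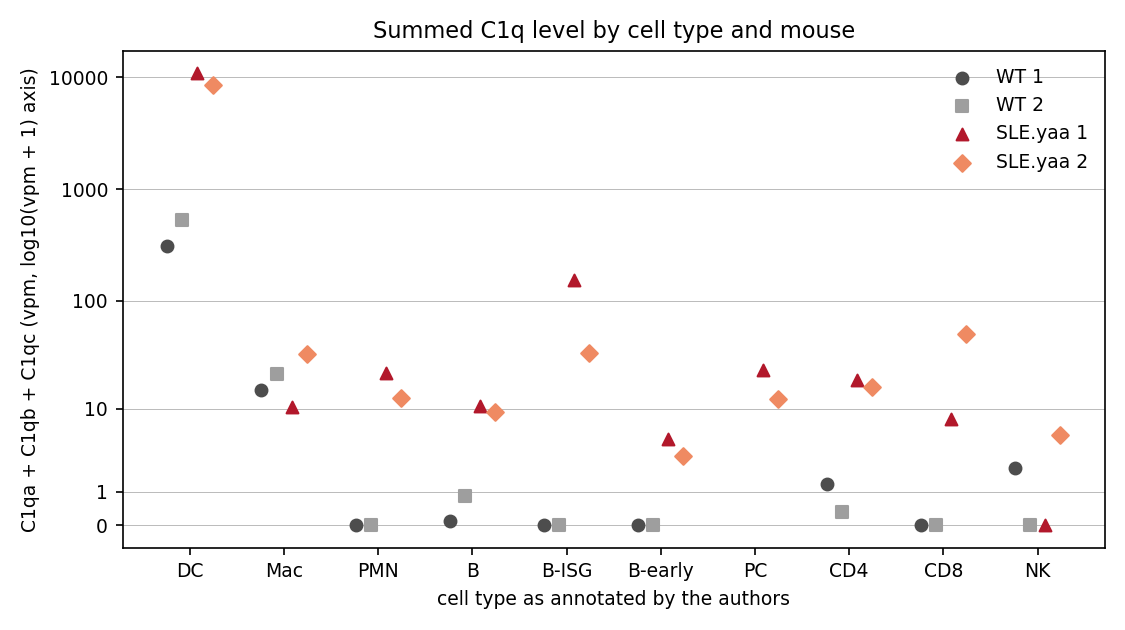
Summed level of C1qa, C1qb and C1qc (vertical axis, vpm on a log10(vpm + 1) scale) for each annotated cell type (horizontal axis), with 1 point per mouse for types with at least 20 cells in that mouse. The cells annotated DC lie above every other type in each mouse, at 312 and 532 vpm in WT and 10788 and 8568 vpm in SLE.yaa.

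Below the cells annotated DC no stable order of types was seen. The level of 154 vpm in B-ISG of SLE.yaa 1 rested on 3 of 47 cells, and the 49.7 vpm in CD8 of SLE.yaa 2 on 13 of 338 cells. In the WT mice 4 of 8 other types (WT 1) and 5 of 8 (WT 2) had no cell with a chain. In the SLE.yaa mice that was so for 1 of 9 types in SLE.yaa 1 and for 0 of 9 in SLE.yaa 2. None of the 2 to 13 pDC of any mouse held a chain, too few cells to place an upper limit that is informative.

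Cells annotated Mac, the most abundant myeloid type, carried little C1q. Any chain was found in 4 of 375 (1.07%, 0.291 to 2.71) and 2 of 169 (1.18%, 0.144 to 4.21) such cells of the WT mice. It was found in 17 of 550 (3.09%, 1.81 to 4.90) and 69 of 1485 (4.65%, 3.63 to 5.84) such cells of the SLE.yaa mice. Lymphoid cells, which are not known to make C1q, gave shares both below and above those of Mac in the SLE.yaa mice. There any chain was found in 2.27% and 1.92% of B cells, 4.41% and 3.64% of CD4 cells, and 6.47% and 5.92% of PC. The median UMI counts of B cells in these mice were 4778 and 4518, against 4790 and 4348 in the cells annotated DC and 3515 and 3149 in Mac. They were 4292 and 3659.5 in CD4 cells and 10022 and 10618 in PC. The share in Mac of SLE.yaa 1 lay between those of B and CD4 cells. In SLE.yaa 2 the share in Mac lay above those of B and CD4 cells and below that of PC, which had far more UMIs. Whether the shares in Mac reflect expression there was not tested. In the WT mice B cells gave 0.0320% and 0.0882%, and the Mac shares above them rest on 4 and 2 cells.

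In the SLE.yaa mice most DC-annotated cells with any chain held all 3, and most such cells of other types did not. All 3 chains were found in 3 of 4 (75.0%, 19.4 to 99.4), 8 of 9 (88.9%, 51.8 to 99.7), 201 of 209 (96.2%, 92.6 to 98.3) and 199 of 219 (90.9%, 86.2 to 94.3) of the DC-annotated cells with any chain for WT 1, WT 2, SLE.yaa 1 and SLE.yaa 2. Outside that type all 3 were found in 1 of 9 (11.1%, 0.281 to 48.2), 3 of 6 (11.8% to 88.2%), 11 of 149 (7.38%, 3.74 to 12.8) and 21 of 181 (11.6%, 7.33 to 17.2) of the cells with any chain. The intervals cover counting error only, and they overlapped in each WT mouse, where the shares rest on few cells. Most C1q cells outside the type held a lone chain, namely 126 of 149 in SLE.yaa 1 and 133 of 181 in SLE.yaa 2. That chain had the smallest value, 1, in 120 of the 126 and in 120 of the 133 cells. A cell whose values sum to 1 cannot hold 3 chains, so joint detection is not independent of the level.

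In the SLE.yaa mice C1qb was the most frequent of the lone chains outside the type, as it was of the summed value within it. In SLE.yaa 1 they were C1qa in 28.6%, C1qb in 40.5% and C1qc in 31.0% of such cells, where the summed value in the cells annotated DC was 29.1% C1qa, 39.6% C1qb and 31.3% C1qc. In SLE.yaa 2 they were 21.8%, 48.1% and 30.1%, against 26.7%, 42.0% and 31.4% in the cells annotated DC. The 7 lone chains of WT 1 were C1qa in 3 cells and C1qb in 4, and the 3 of WT 2 were C1qb in 2 and C1qc in 1, too few to set against the shares within the type. Values were not divided by transcript length, so these shares describe the table and not the ratio of the proteins. Whether free RNA in the droplets gave the lone chains was not tested.

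**Figure D2:**
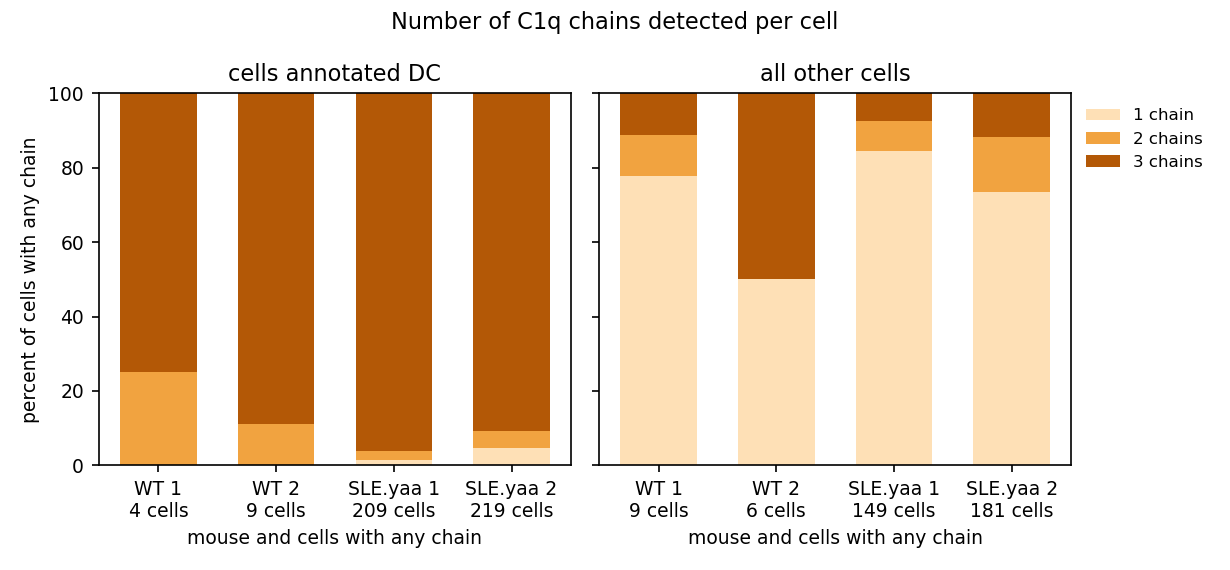
Cells with any C1q chain, split by the number of chains detected (stacked bars, percent of such cells), in cells annotated DC (left) and all other cells (right) of each mouse. In the SLE.yaa mice 96.2% and 90.9% of the cells on the left hold all 3 chains, against 7.38% and 11.6% on the right, and the WT bars rest on 4 to 9 cells.

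Outside the cells annotated DC, the few cells with 2 or 3 chains differed from those with a lone chain in their macrophage transcripts. Among B, T, NK and plasma cells, at least 3 genes of a macrophage list of 19 measured genes were found in 66.7% of the 18 cells with 2 or 3 chains in SLE.yaa 1 and in 53.8% of the 26 in SLE.yaa 2. The share was 4.95% and 5.33% in cells with a lone chain and 0.630% and 0.837% in cells with none. This did not hold for every type. In CD8 of SLE.yaa 2, 1 of 7 cells with 2 or 3 chains held at least 3 macrophage genes, with a median of 1 gene. A heavy-chain record was present in 6 of the 18 (33.3%, 13.3 to 59.0) and 13 of the 26 (29.9% to 70.1%) cells with 2 or 3 chains. The share was 62.4% and 46.7% in cells with a lone chain and 62.7% and 57.2% in cells with none. A T cell receptor was recorded for 5 of the 18 and 3 of the 26. The pool mixes B and T lineages, so these shares depend on its make-up. Whether the cells with 2 or 3 chains were doublets was not tested.

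The cells annotated DC were then divided into C1q-positive cells, with 2 or 3 chains, and C1q-negative cells, with none. WT 1 held 4 positive and 73 negative cells, WT 2 held 9 and 65, SLE.yaa 1 held 206 and 51, and SLE.yaa 2 held 209 and 71. A lone chain was found in 0, 0, 3 and 10 of the cells annotated DC, which were left out. As a share of all cells of the mouse, C1q-negative cells made up 1.33%, 1.14%, 1.03% and 1.16%, whereas C1q-positive cells made up 0.0728%, 0.158%, 4.15% and 3.41%. The type was thus larger in the SLE.yaa mice by its C1q-positive cells, while the share of its C1q-negative cells lay in the same narrow range in both groups.

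**Figure D3:**
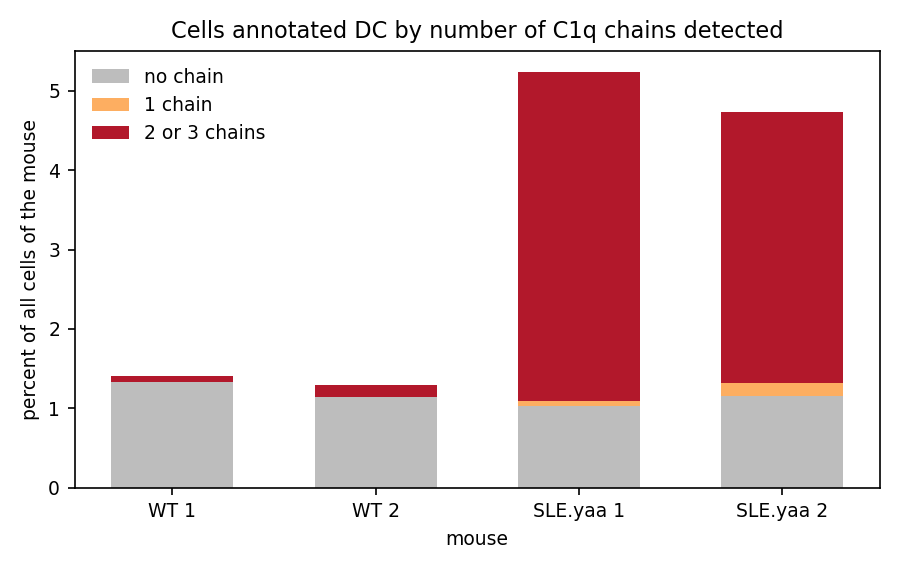
Cells annotated DC as a percent of all cells of each mouse (vertical axis), split by the number of C1q chains detected. The part with no chain lies between 1.03% and 1.33% in the 4 mice, and the part with 2 or 3 chains is 0.0728% (WT 1), 0.158% (WT 2), 4.15% (SLE.yaa 1) and 3.41% (SLE.yaa 2).

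The positive cells of the SLE.yaa mice also held more C1q per cell. The summed value of the chains in a positive cell had a lowest, median and highest of 8, 26.5 and 34 in WT 1 and 2, 13 and 29 in WT 2. It was 6, 55.5 and 152 in SLE.yaa 1 and 2, 42 and 148 in SLE.yaa 2. As a share of all value in the cell, the medians were 0.700%, 0.449%, 1.32% and 1.04%. Both SLE.yaa medians lay above both WT medians, and the WT medians rest on 4 and 9 cells with median UMI counts of 4281 and 1739, against 4448 and 3796 in the SLE.yaa mice.

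Within the positive cells the chains varied together. In SLE.yaa 1 the Spearman correlations over 206 cells were 0.75 for C1qa with C1qb, 0.80 for C1qa with C1qc and 0.82 for C1qb with C1qc. In SLE.yaa 2, over 209 cells, they were 0.81, 0.81 and 0.88. The cells of a mouse share a library, and the summed value itself correlated with the UMI count of the cell at 0.43 and 0.56. C1qb had the highest value of the chains in 53.9% and 67.0% of these cells.

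The name DC was checked against marker lists in the positive cells, and the data went against it. At least 3 of the 19 macrophage genes were found in every positive cell of both WT mice, in 92.2% of those in SLE.yaa 1 and in 80.4% of those in SLE.yaa 2, against 9.59%, 12.3%, 9.80% and 9.86% of the negative cells. At least 3 of 13 dendritic cell genes were found in 0% of the positive cells of each mouse, against 61.6%, 69.2%, 56.9% and 60.6% of the negative cells. Flt3, the receptor that drives dendritic cell development, was found in no positive cell of any mouse and in 49.0% to 62.0% of the negative cells. Zbtb46, a transcription factor of conventional dendritic cells, was found in 0% of the positive cells of the WT mice and in 0.485% and 0.957% of those of the SLE.yaa mice, against 30.1% to 43.1% of the negative cells.

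Single macrophage genes were found in differing shares of the positive cells. Spic, a transcription factor that splenic red pulp macrophages need, was found in 75.0% and 77.8% of the positive cells of the WT mice and in 53.4% and 38.8% of those of the SLE.yaa mice. The heme oxygenase gene Hmox1 was found in every positive cell of both WT mice and in 68.4% and 45.9% of those of the SLE.yaa mice. Marker genes of other macrophage sets were rare, with Marco in 7.28% and 2.39%, Siglec1 in 7.77% and 3.83%, and Timd4 in 6.31% and 3.35% of the positive SLE.yaa cells, and all 3 in 0% of the positive WT cells. These cells are called C1q-positive cells annotated DC below.

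By the same lists the cells annotated Mac carried monocyte genes. Of C1q-negative cells annotated Mac, 98.8% to 99.6% held at least 3 monocyte genes and 35.5% to 57.5% at least 3 macrophage genes. In the SLE.yaa mice, 61.7% and 58.4% of C1q-positive cells annotated DC held at least 3 monocyte genes. The C1q-negative cells annotated DC gave 23.5% and 28.2%. In WT 1 and WT 2, 2 of 4 and 2 of 9 positive cells did, against 23.3% and 26.2% of negative cells. Summed levels separated the types more sharply. The summed level of 12 monocyte genes was 21781, 24047, 13991 and 12335 vpm in the cells annotated Mac, against 2180.4 to 3340.3 vpm in the C1q-positive cells annotated DC. The summed level of the macrophage genes was 1801, 3257, 2374 and 1847 vpm in the cells annotated Mac, against 17291, 20021, 12708 and 8654 vpm in the C1q-positive cells annotated DC.

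Antigen receptor records, a readout that did not enter the choice of cells, were rare in the positive cells. A heavy chain was recorded for 0 of 4 and 0 of 9 positive cells of the WT mice, and for 4 of 206 (1.94%, 0.532 to 4.90) and 1 of 209 (0.478%, 0.0121 to 2.64) of those of the SLE.yaa mice. The shares in the negative cells were 2.74%, 3.08%, 1.96% and 2.82%, within overlapping intervals. A T cell receptor was recorded for 1 positive cell in each SLE.yaa mouse and for none in the WT mice. The positive cells had lower median UMI counts than the negative cells in all 4 mice, at 4281, 1739, 4448 and 3796 against 5314, 5139, 6798 and 7337. They had a higher median percent of mitochondrial UMIs in all 4, at 3.01%, 3.10%, 2.07% and 2.01% against 1.71%, 1.60%, 1.24% and 1.59%.

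To find what else the C1q-positive cells expressed, their mean profiles were compared with those of the C1q-negative cells of the same mouse with limma on log2(vpm + 10), which understates differences of low genes. Only SLE.yaa 1 and SLE.yaa 2 had at least 10 cells in each class, so the test rests on 2 mice. With so few profiles limma draws most of the variance of a gene from other genes (median 26.2 degrees of freedom). Its SEs and small p-values therefore say little about the spread between mice. Of 8695 genes other than the chains, 1177 (13.5%) were higher and 859 (9.88%) lower at an adjusted p below 0.05, with a median log2 difference of 0.04 over all genes. The members of a list are read against these shares. A gene entered the test when it reached 10 vpm in at least 2 of the 4 profiles, so a gene below 10 vpm throughout the negative cells was tested only because of its level in the positive cells, and such a gene supports no count of its list. Of the 7845 genes that reached 10 vpm in both classes, 880 (11.2%) were higher and 589 (7.51%) lower. With the WT mice added, though they have only 4 and 9 positive cells, the comparison over 4 mice called 189 genes higher and 344 lower, and calls it lost are given below as lost over 4 mice. The parts played by the lower UMI counts and higher mitochondrial shares of the positive cells in these differences were not tested.

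Of 24 measured genes of the classical pathway and its regulators, 12 were tested, and 7 of these reached 10 vpm in both classes. Of the 7, 4 were higher (Cfb, Itgb2, Cfp and Itgam) and 0 lower. The other 5 (C6, C4b, Vsig4, C3ar1 and Cd55) were tested only because of their level in the positive cells, and are given by their values. All 9 of these calls were lost over 4 mice. C6, a part of the membrane attack complex, was listed at 0 in the negative cells of both mice. It stood at 302 and 135 vpm in the positive cells of SLE.yaa 1 and SLE.yaa 2. C4b, the fourth component cleaved by C1s, was likewise listed at 0 in the negative cells. In the positive cells it stood at 75.7 and 61.5 vpm. Both genes were listed at 0 in all WT cells annotated DC, positive cells included, and over 4 mice neither passed (adjusted p = 0.0990 for C6 and 0.135 for C4b). For genes at or near 0 in a class the log2 difference depends on the 10 that was added, and it is not read as a fold, here or below.

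Receptors and regulators differed by less. Vsig4, the complement receptor of tissue macrophages, stood at 31.2 and 12.5 vpm in positive cells and was listed at 0 in negative cells. C3ar1, the receptor of C3a, stood at 31.2 and 13.7 vpm against 4.11 and 0 vpm. Itgb2, the shared chain of complement receptors 3 and 4, stood at 798 and 953 vpm against 320.2 and 384 vpm, a log2 difference of 1.32 (SE 0.175, limma adjusted p = 1.29e-06). Cfp (properdin, 1.16), Cd55 (1.10) and Itgam (0.85) were also higher on the log2 scale, and Itgam lost its call without the mouse in the model (adjusted p = 0.251). Cfb, factor B of the alternative pathway, stood at 45.7 and 71.7 vpm against 45.2 and 0 vpm, so its call (log2 difference 1.54, limma adjusted p = 0.0102) came from SLE.yaa 2 and was lost without the mouse in the model (adjusted p = 0.115). C3 (0.45), Cr1l (0.45) and Itgax (0.31) did not pass the test. Over 4 mice the adjusted p was 0.243 for Vsig4, 0.297 for C3ar1, 0.252 for Itgb2, 0.170 for Cfp, 0.392 for Cd55, 0.950 for Itgam and 0.586 for Cfb.

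The proteases that C1q activates were low or not in the table. C1ra did not pass the filter, at 1.11 and 4.55 vpm in the positive and 0 vpm in the negative cells of SLE.yaa 1 and SLE.yaa 2, and C1rb, C1s1 and C1s2 were not among the genes of the table. C2, which C1s also cleaves, did not pass the filter either, at 47.9 and 7.97 vpm in the positive cells and 0 vpm in the negative cells. None of 7 measured genes of the C1q related family, which share the globular head domain, passed it.

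Of 10 measured genes whose products bind C1q or have been proposed as its receptors, 6 were tested, all of which reached 10 vpm in both classes, and 4 were higher and 0 lower, with a median log2 difference of 1.10. Lrp1, an endocytic receptor of macrophages, stood at 357 and 217 vpm in positive cells and 12.3 and 19.9 vpm in negative cells (log2 difference 3.51, SE 0.274, limma adjusted p = 1.02e-10). It was as high in the few positive WT cells, at 458 and 546 vpm against 24.2 and 32.1 vpm. Cd44 (1.82) and Lair1 (1.60), an inhibitory receptor that binds the collagen tail of C1q, were higher as well. Calr, which encodes calreticulin, differed by 0.59 (limma adjusted p = 0.0264), a call lost without the mouse in the model (adjusted p = 0.116). Over 4 mice Lair1 (adjusted p = 0.140) and Calr (0.530) no longer passed, and Lrp1 and Cd44 did. C1qbp and Cd33 did not pass the test, and Cd93 did not pass the filter.

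Of 19 measured genes for the uptake of dying cells 13 were tested, and 5 of these reached 10 vpm in both classes. Of the 5, Axl, Itgav and Tgm2 were higher and Havcr2 was lower. A further 6 (Itgb5, Mertk, Stab2, Pros1, Abca1 and Gas6) were tested only because of their level in the positive cells, and 2 (Anxa1 and Cd36) only because of their level in the negative cells. Axl, a receptor for phosphatidylserine bridged by Gas6 and protein S, stood at 561 and 392 vpm in positive cells of SLE.yaa 1 and SLE.yaa 2 against 4.11 and 17.1 vpm in negative cells (log2 difference 4.64, SE 0.281, limma adjusted p = 6.70e-13). Its relative Mertk stood at 167 and 119.6 vpm and was listed at 0 in the negative cells. In the positive WT cells Axl stood at 982 and 1364 vpm and Mertk at 524 and 443 vpm, above both SLE.yaa mice.

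The ligands and other receptors of the list did not all lie on 1 side. Pros1, which encodes protein S, stood at 61.2 and 71.7 vpm against 4.11 and 2.84 vpm, and Gas6 at 29.0 and 25.0 vpm against 0 and 0. The integrin chain Itgb5 (173 and 138 vpm) and Stab2 (70.2 and 50.1 vpm), a scavenger receptor, were listed at 0 in the negative cells. Abca1 (2.09), Itgav (1.18) and Tgm2 (0.62) were higher on the log2 scale. The lower members were Anxa1 (log2 difference -2.68), which encodes annexin A1, and Havcr2 (log2 difference -0.87, limma adjusted p = 0.0106), the inhibitory receptor TIM-3. Cd36, a scavenger receptor, differed by -0.42 and did not pass the test. Over 4 mice Pros1 (adjusted p = 0.149), Gas6 (0.204), Stab2 (0.144), Itgav (0.179), Tgm2 (0.220) and Havcr2 (0.0719) no longer passed. Axl, Mertk and Timd4 also stand in the macrophage list.

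**Figure D4:**
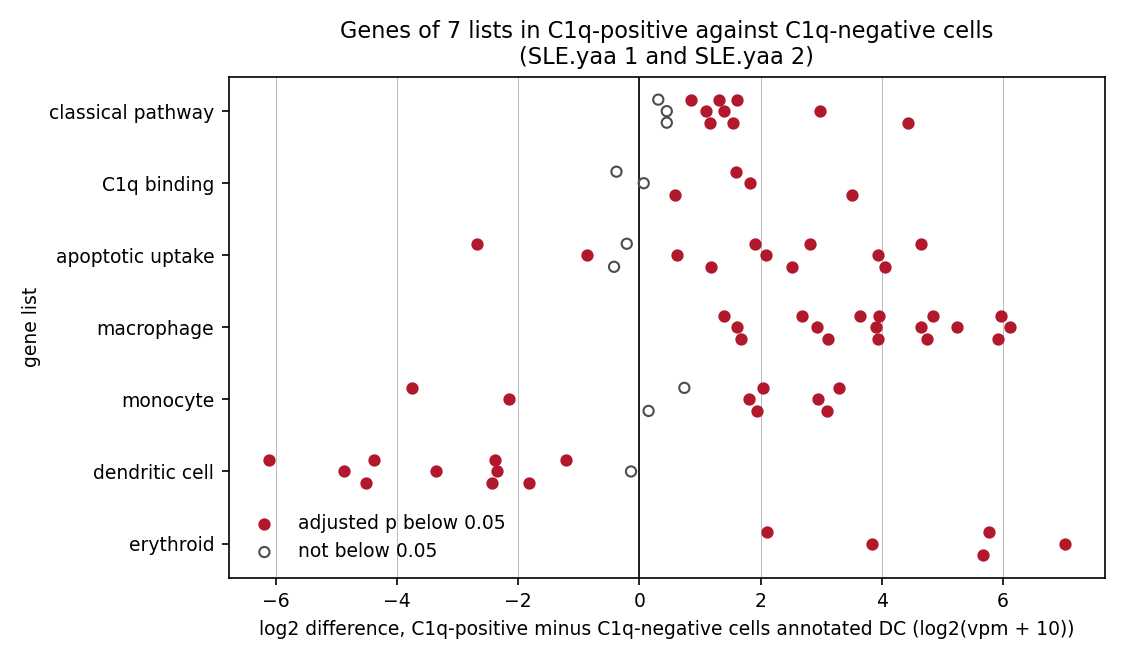
Log2 difference of each tested gene of 7 lists between C1q-positive and C1q-negative cells annotated DC (horizontal axis, log2(vpm + 10), SLE.yaa 1 and SLE.yaa 2), with filled points for genes at a limma adjusted p below 0.05. Among genes that reached 10 vpm in both classes, 10 of 10 macrophage and 4 of 7 classical pathway genes are called higher. There 5 of 6 dendritic cell genes are called lower. Of all 7845 such genes, 11.2% are called higher and 7.51% lower. A further 7 macrophage and 5 classical pathway genes called were below 10 vpm in the negative cells. A further 5 dendritic cell genes called were below it in the positive cells. These were tested only because of their level in the other class.

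The genes with the largest differences in the whole table were macrophage and red cell genes. Vcam1, an adhesion molecule of red pulp macrophages, stood at 1657 and 1157 vpm in positive cells against 16.4 and 5.68 vpm (log2 difference 6.12, SE 0.216, limma adjusted p = 7.43e-18). Next to it stood Cd5l (5.97), a secreted macrophage protein, Slc40a1 (5.91), the iron exporter ferroportin, Mrc1 (5.24), the mannose receptor, Apoe (4.74), Axl (4.64) and Selenop (4.44), a selenium carrier. Fcna encodes ficolin A, a recognition molecule of the lectin pathway of complement. It stood at 637 and 317 vpm against 4.11 and 0 vpm (log2 difference 5.29). In the positive WT cells Fcna stood at 1113 and 1194 vpm and was listed at 0 in the negative cells. Cd5l, Slc40a1, Mrc1 and Fcna were below 10 vpm in the negative cells of SLE.yaa 1 and SLE.yaa 2. These genes were tested only because of their level in the positive cells, and their log2 differences depend on the 10 that was added. Of the macrophage list 10 tested genes reached 10 vpm in both classes and all 10 were higher. Of the dendritic cell list 6 did, of which 5 were lower, Batf3 being the exception. Over 4 mice the macrophage genes Cd68 (adjusted p = 0.219), Siglec1 (0.272) and Vsig4 (0.243) lost their call.

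The haemoglobin genes Hbb-bs, Hba-a1 and Hba-a2 were also among the 12 largest differences. All 5 erythroid genes were higher, and each was tested only because of its level in the positive cells. Over 4 mice all but Hbb-bs lost their call, with adjusted p from 0.0749 (Hba-a1) to 0.186 (Alas2). Hbb-bs stood at 869.6 and 1876 vpm in the positive cells of SLE.yaa 1 and SLE.yaa 2 and was listed at 0 in the negative cells. The signal came from few cells: any of 4 haemoglobin genes was found in 11 of 206 (5.34%) and 26 of 209 (12.4%) positive cells, 2 of 9 in WT 2 and 0 of 4 in WT 1. It was found in 0 of the negative cells of each mouse, and in 0.609%, 1.17%, 0.638% and 1.03% of all cells not annotated DC. The summed erythroid level was 1774 and 3427 vpm in the positive cells of the SLE.yaa mice and 0 and 102 vpm in those of WT 1 and WT 2. Its part in the other differences was not tested.

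Lower in the positive cells were genes of conventional and migrating dendritic cells. Fscn1 encodes the actin bundler fascin. It stood at 6.68 and 1.14 vpm against 1675 and 531 vpm in the negative cells (log2 difference -6.12). Ccr7, the homing receptor for lymph nodes, stood at 18.9 and 3.42 vpm against 895 and 367 vpm. Cd7 (-5.03), Apol7c (-4.73), Klrd1 (-4.56), Cacnb3 (-4.56), Flt3 (-4.51) and Cd209a (-4.38), a lectin of dendritic cells, completed the 8 lowest. All 8 were listed at 0 in the positive cells of both WT mice. All but Ccr7 were also below 10 vpm in the positive cells of SLE.yaa 1 and SLE.yaa 2. Those genes were tested only because of their level in the negative cells, and their log2 differences depend on the 10 that was added. Of 10 tested monocyte genes 8 reached 10 vpm in both classes. Of the 8, 5 were higher, among them Csf1r and Cx3cr1, and 1 was lower, S100a4. Cd14 was higher but was tested only because of its level in the positive cells. Ccr2 was lower but was tested only because of its level in the negative cells. Among the called monocyte genes, Cx3cr1 (log2 difference 2.94, but 0.93 over 4 mice with adjusted p = 0.490), Nr4a1 (0.941) and Spn (0.760) lost their call over 4 mice.

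Genes of other cell types were counted where they reached the filter level in both classes. There 1 of 3 B cell genes (Cd79b), 1 of 3 plasma cell genes (Xbp1) and the endothelial gene Pecam1 were higher. The platelet genes Pf4 and Ppbp were higher but were tested only because of their level in the positive cells. The plasma cell gene Irf4 was lower but was tested only because of its level in the negative cells. None of these 6 passed over 4 mice, with adjusted p from 0.0673 (Irf4) to 0.469 (Xbp1). None of the 2 T cell genes counted so was called, and Cd8a was lower but was tested only because of its level in the negative cells. The NK cell gene tested (Klrk1) was lower, and none of 4 plasmacytoid dendritic cell genes was called. Of 3 neutrophil genes 1 was higher (Csf3r, lost over 4 mice with adjusted p = 0.950) and 2 were lower, with a summed level of 136 and 561 vpm in the positive and 57.5 and 3427 vpm in the negative cells of SLE.yaa 1 and SLE.yaa 2.

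The genes whose levels were most like those of C1q across the spleen were found over 38 groups of mouse and type with at least 20 cells. The measure was the Pearson correlation of log2(vpm + 10) with the mean of the chains, over 11087 genes, and 44 genes reached more than 0.9. The 10 highest were Hebp1 (0.980), a heme-binding protein, Epb41l3 (0.971), a membrane skeleton protein, Cd5l (0.968), Fcna (0.968), Ms4a7 (0.966), Snx24 (0.966), a sorting nexin, Cadm1 (0.963), an adhesion molecule, Mertk (0.955), Mrc1 (0.954) and Rab3il1 (0.952). The groups share 4 libraries, and a gene found mainly in the C1q-positive cells scores high by that alone. Hebp1 stood at 52.5, 75.4, 322 and 285 vpm in the cells annotated DC of WT 1, WT 2, SLE.yaa 1 and SLE.yaa 2, and at no more than 9.31 vpm in any other group.

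Genes that flank the cluster were mostly not detected. RefSeq places 10 other genes within 250 kb, of which 3 were in the table and 1, Zbtb40, passed the filter. Zbtb40 differed by 0.02 on the log2 scale between C1q-positive and C1q-negative cells (SE 0.350, limma adjusted p = 0.982), with 16.7 and 7.97 vpm against 12.3 and 11.4 vpm in SLE.yaa 1 and SLE.yaa 2. In the few positive WT cells it stood higher than in the negative cells, at 65.5 and 102 vpm against 3.45 and 4.02 vpm.

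The other genes of the pathway were then compared between SLE.yaa and WT mice, 2 against 2, with limma on the profile of each mouse. In the cells annotated DC, 728 of 8786 genes (8.29%) were higher in SLE.yaa and 333 (3.79%) lower, with a median log2 difference of 0.06. Scaling to the sum alone in place of TMM moved the share of higher calls from 68.6% to 54.5%. Of the 8200 genes that reached 10 vpm in both groups, 6.66% were higher and 3.20% lower. Of 9 tested pathway genes, 6 reached 10 vpm in both groups, of which 1, Itgb2, was higher and 0 lower. C6, C4b and Cfb were tested only because of their level in the SLE.yaa mice. C6 was listed at 0 in both WT mice and stood at 234 and 96.9 vpm in SLE.yaa 1 and SLE.yaa 2. C4b was listed at 0 in both WT mice and stood at 58.8 and 42.6 vpm.

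Cfb, the last of these, and Itgb2 followed. Cfb stood at 6.56 and 0 vpm in WT and 45.0 and 50.4 vpm in SLE.yaa (log2 difference 2.26). Itgb2 stood at 322 and 366 vpm against 695 and 785 vpm (log2 difference 1.25, SE 0.175, limma adjusted p = 0.00257). Of 6 tested C1q binding genes 2 were higher, Lrp1 and Lair1. Of 12 tested uptake genes 10 reached 10 vpm in both groups, of which 6 were higher and 1 lower, and Stab2 and Gas6 were tested only because of their level in the SLE.yaa mice. Axl stood at 52.5 and 151 vpm against 437 and 284 vpm (log2 difference 2.01, limma adjusted p = 0.0129). Without the filter, Axl (adjusted p = 0.121), Lrp1 (0.0932), Mertk (0.0957), Pros1 (0.0820), Abca1 (0.0655) and Anxa1 (0.0751) no longer passed. Abca1 no longer passed without SLE.yaa 2 (adjusted p = 0.0754), nor did the lower gene, Anxa1, without SLE.yaa 1 (0.153).

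These differences moved with the make-up of the type. C1q-positive cells were 5.19% and 12.2% of the cells annotated DC in WT and 79.2% and 72.1% in SLE.yaa, and 13 of 15 tested macrophage genes were higher while 5 of 11 dendritic cell genes were lower. The summed macrophage level was 1358 and 2629.9 vpm in WT and 10000.1 and 6291 vpm in SLE.yaa. Erythroid genes summed to 0 and 10.8 vpm in WT and to 1378 and 2372 vpm in SLE.yaa. How far these genes differed within the C1q-positive cells between strains was not tested, with 4 and 9 such cells in WT.

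In the cells annotated Mac the pathway genes called were C5ar1 and Itgax, and whether their differences were unlike those in the cells annotated DC was not tested. There 309 of 7920 genes (3.9%) were higher in SLE.yaa and 143 (1.81%) lower, with a median log2 difference of 0.03, and scaling to the sum alone moved the share of higher calls from 68.4% to 39.3%. Of 10 tested pathway genes 2 were higher and 0 lower. C5ar1, the receptor of the inflammatory fragment C5a, stood at 28.3 and 22.9 vpm in WT and 78.6 and 94.2 vpm in SLE.yaa (log2 difference 1.59, SE 0.167, limma adjusted p = 0.00140). Itgax, the alpha chain of complement receptor 4, stood at 62.2 and 65.8 vpm against 154 and 174 vpm (log2 difference 1.41, SE 0.137, limma adjusted p = 0.00111). Of 7 tested C1q binding genes Cd93 was lower, at 30.4 and 76.5 vpm against 15.2 and 11.1 vpm (log2 difference -1.23, limma adjusted p = 0.0376). That call was lost without SLE.yaa 1 (0.0619), without SLE.yaa 2 (0.205), without the filter (0.169) and at a pseudocount of 50 (0.0564).

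Of 10 tested uptake genes in the cells annotated Mac, Tgm2 and Itgb3 were higher, and Itgb3 no longer passed without SLE.yaa 2 (adjusted p = 0.359), without the filter (0.136) or with scaling to the sum alone (0.0512). C6 was listed at 0 in the cells annotated Mac of all 4 mice, and C4b stood at 8.29, 0, 0.869 and 2.31 vpm. The summed monocyte level was 21781 and 24047 vpm in WT and 13991 and 12335 vpm in SLE.yaa, with 4 of 12 monocyte genes higher and 4 lower, and the macrophage list had 0 of 7 tested genes called. The part of this shift in the pathway genes was not tested.

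Over all cells, 504 of 8532 genes (5.91%) were higher in SLE.yaa and 157 (1.84%) lower, with a median log2 difference of -0.02. Of 9 tested pathway genes 4 were higher and 1 lower. C3, the central component of complement, stood at 20.8 and 10.2 vpm in WT and 45.5 and 101 vpm in SLE.yaa (log2 difference 1.70, SE 0.371, limma adjusted p = 0.0470). Cfp stood at 29.2 and 27.9 vpm against 60.1 and 64.2 vpm (log2 difference 0.95, SE 0.104, limma adjusted p = 0.00589). Itgax (1.35) and C5ar1 (1.20) were higher as well. C3 lost its call at a pseudocount of 50 (adjusted p = 0.0705), and without the filter C3 (0.0934), C5ar1 (0.0818) and Itgax (0.0665) lost theirs.

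The lower gene was Cr2, complement receptor 2 of B cells, at 275 and 296 vpm in WT and 103 and 79.7 vpm in SLE.yaa (log2 difference -1.50, SE 0.117, limma adjusted p = 0.00194). Of 6 tested C1q binding genes Calr was higher (0.77), a call lost without WT 2 (adjusted p = 0.0845). Of 10 tested uptake genes 4 were higher, Tgm2, Itgav, Axl and Itgb5, the last 2 of which were tested only because of their level in the SLE.yaa mice. Itgav no longer passed without WT 1 (adjusted p = 0.143), WT 2 (0.113) or the filter (0.0512), or with scaling to the sum alone (0.0633). In profiles of all cells, a difference in the number of cells of a type and in the level per cell cannot be told apart. Cells annotated B were 56.9% and 59.7% of the WT cells and 49.7% and 40.0% of the SLE.yaa cells, and cells annotated Mac 6.82% and 2.97% against 11.1% and 24.2%.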

How the data were processed

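Spleen cells of 2 WT and 2 SLE.yaa mice were used. The deposited expression table holds, per gene and cell, the natural log of 1 plus a whole number (within 1.64e-11), a value adjusted for depth by steps not given in the sources used here. The sums of these values per cell span 2663 to 6382, against UMI counts per cell, deposited by the authors, of 1002 to 26847, so the values are not counts and cells could not be thinned to 1 depth. The percent of mitochondrial UMIs, at most 5, was deposited with the authors' cell types, and deposited receptor tables, with UMI counts per contig, gave the presence of a chain. Tools named in the submitters' processing notes are Seurat 4.0.0 and Cell Ranger 5.0.0, with the build GRCm38 (mm10). Rows without a gene name (15, with 0.044% of the values) were left out, and a dot became a hyphen in 56 symbols. Doublets were not called here.

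Mean profiles were scaled to 1000000 (vpm) and with TMM factors (edgeR 4.0.16). Genes that reached 10 vpm in 2 or more profiles were tested with limma 3.58.1 (trend) on log2(vpm + 10), two-sided, with Benjamini-Hochberg adjustment over all genes tested and a threshold of 0.05. The fit of C1q-positive against C1q-negative cells had the mouse as a block and needed 10 cells in each class. R 4.3.3, Python 3.11.15 and scipy 1.17.1 were used. The replicate numbers only name the mice, in the order of their records, without pairing them, and nothing states how the mice were raised or whether libraries were made together. The members, lists and tests were chosen with earlier results of these data known. Named were the 3 chains, up to 6 called members of each list by size, the 12 largest and 8 smallest differences within the cells annotated DC, and the 10 genes most like the chains. A gene that this rule names is not reported here. Other genes named, to complete a count or to check a label, were chosen after their values were seen. Alternatives changed the pseudocount, scaling, filter, block, class rule, UMI range and mice.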

Additional observations from a re-analysis of the deposited data

How the results depend on the processing

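The comparison within the cells annotated DC called 2036 genes, and 1464 to 2235 with another pseudocount (1 or 50), scaling, filter (none or 50 vpm) or class rule (all 3 chains, or at least 1), with every call that was still tested on the same side. Without the mouse in the model (no replicate block) it called 1709, of which 1702 were among the 2036. An alternative added after seeing the data, all 4 mice with at least 3 cells in each class, called 533 with a median log2 difference of -0.44 over all genes. Of the 2036 genes, 1869 kept their side there and 526 their call. Leaving out 1 mouse at a time, the added fit called 425 (WT 1 left out), 194 (WT 2), 456 (SLE.yaa 1) and 496 (SLE.yaa 2). The main comparison keeps its 2036 calls without a WT mouse, since it uses none. Without an SLE.yaa mouse the main comparison has 1 mouse and no value. In 1 of these added fits Cfb changed side (-0.27, without SLE.yaa 2). Of the 43 genes that the rule for naming genes picked there, 19 lost their call in at least 1 of the added fits and 2, Calr and Cfb, in another setting.

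For SLE.yaa against WT, the calls over all cells fell from 661 to 268 with the filter at 50 vpm. Those in cells annotated Mac fell from 452 to 83, and those in cells annotated DC from 1061 to 327, without the filter, where 14315 and 13900 genes were tested. Leaving out each mouse gave 473 to 1770 calls over all cells, with the highest without SLE.yaa 1. In cells annotated Mac it gave 1593 (WT 1 left out), 1020 (WT 2), 213 (SLE.yaa 1) and 95 (SLE.yaa 2), and in cells annotated DC 2040, 2052, 521 and 636 in the same order. The lone mouse left in a group is then assumed to vary like the others. The cause was not tested.

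With only cells of 2000 to 8000 UMIs, any chain was found in 84.3% of the SLE.yaa cells annotated DC (78.0% over all) and all 3 chains in 100% of such WT cells with any (81.9% over all). With a value of at least 2 as detected, the share of C1q value in SLE.yaa cells annotated DC was 98.0% (96.8%). The log2 ratio of C1q between cells annotated DC and Mac was 4.50 in WT and 9.03 in SLE.yaa. It was 2.82 and 4.36 with the share of cells with any chain in place of the level, and 5.04 in WT with cells of 2000 to 8000 UMIs. Leaving out each mouse, detection ran from 5.19% to 12.2% in WT and 75.5% to 80.4% in SLE.yaa, the share of C1q value from 77.2% to 85.5% and 95.9% to 97.6%, joint detection from 75.0% to 88.9% and 90.9% to 96.2%, and the log2 ratio from 4.36 to 4.63 and 8.04 to 10.0. The heavy-chain share of C1q-positive SLE.yaa cells ran from 0.478% to 1.94%.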
